A study of Mus musculus with 4 samples.

Results

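The voltage-gated calcium and sodium channel genes were followed across the cell types of the adult mouse hypothalamus, in single nuclei of wild type mice and of mice carrying a mutant thyroid hormone receptor α1. The 40 genes were taken by symbol from the 32285 features of the count matrices, as every Cacna1, Cacna2d, Cacnb and Cacng gene of the calcium channels and every pore and β subunit gene of the sodium channels. They comprised 26 calcium channel genes (10 pore, 4 α2δ, 4 β and 8 γ) and 14 sodium channel genes (10 pore and 4 β). Nuclei came from untreated adult male mice on a C57/BL6NCr background, either wild type or heterozygous for the R384C change in TRα1 (TRα1+m), which lowers the affinity of the receptor for its ligand. The allele is carried in the germline and not restricted to a cell type, and TRα1+m mice keep 1 wild type copy. Hypothalami of 3 mice of 1 genotype were pooled for each library, and 2 independent experimental repeats gave 4 libraries, so each genotype had n = 2 pools from 6 mice. Values are given in the order wild type repeat 1, wild type repeat 2, TRα1+m repeat 1 and TRα1+m repeat 2 unless stated otherwise.

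Voltage-gated calcium channels are built around a pore-forming α1 subunit that opens on depolarisation and lets calcium into the cell. The pore subunits fall into classes by the current they carry, with the L-type pores coupling activity to transcription and pacemaking, the P/Q, N and R types driving transmitter release, and the low-threshold T-type pores supporting burst firing. Extracellular α2δ and intracellular β subunits bring the pore to the membrane and set its gating, whereas several γ proteins are better known as auxiliary subunits of AMPA-type glutamate receptors. Sodium channel pores carry the upstroke of the action potential, and their small β subunits, which are also adhesion molecules, tune gating and placement at the axon initial segment. In the hypothalamus these channels shape the burst firing and peptide release of neurosecretory and appetite-related neurons, while oligodendrocyte progenitor cells (OPCs) and tanycytes, the radial glia-like cells that line the third ventricle, also hold some of them.

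The libraries held 14652, 13323, 16435 and 11976 annotated nuclei with median depths of 2904 to 4018 unique molecular identifiers (UMIs) per nucleus, and repeat 2 was the deeper one in both genotypes. Cell types were those of the deposited annotation, and UMIs were summed per library and cell type and scaled to counts per 1000000 (CPM). Pairs of libraries shared 44 to 64 cell barcodes. The Neurons_2 cluster, of whose 864 nuclei 852 came from the TRα1+m library of repeat 2, and 207 unclassified non-neuronal nuclei were set aside, which leaves Neurons_1 and 4 glial classes. Among the peptide-named neuronal sub-clusters 5 of 9 name-giving markers were highest, of 14 sub-clusters, where the name placed them. The exceptions were Avp and Sst, ranked 2 in their sub-clusters, Cartpt, ranked 3 in CART Neurons_1, and Hcrt, the orexin precursor, which stood at 69.6 CPM and rank 13 in the sub-cluster labelled Orexin+, so the defining marker was low under that label. Free RNA was read from 8 neuron-restricted genes, which stood in oligodendrocytes at 10.8% to 98.3%, in the astrocyte cluster at 8.99% to 83.9%, in OPCs at 10.5% to 62.0% and in microglia and macrophages at 12.9% to 101% of their Neurons_1 level.

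Most channel genes were highest in Neurons_1. Of the 39 genes with at least 10 UMIs in the 5 cell types, 30 had their highest mean CPM in Neurons_1, 4 in OPCs, 2 in oligodendrocytes, 2 in the astrocyte cluster and 1 in microglia and macrophages. The placements are descriptions with no test, because the clusters were made from the same counts. Several outside neurons were narrow, with overlapping libraries. Among them were Cacna1s (1.09 CPM in OPCs, 0.78 in the astrocyte cluster) and Cacng1 (1.26 in OPCs, 0.75 in Neurons_1). Scn4b (1.51 in oligodendrocytes, 1.23 in Neurons_1) and Cacnb1 (14.8 in the astrocyte cluster, 13.0 in Neurons_1) were others. Libraries also overlapped for some genes highest in Neurons_1. Cacnb3 had 15.4 CPM there against 15.3 in microglia and macrophages, and Cacnb2 666 against 590 in the same type. Cacnb4 had 253 CPM against 219 in oligodendrocytes, and Scn2b, Cacng5 and Cacna1h overlapped with their second type as well. The share of all genes highest in Neurons_1 was not taken. The 8 genes that stayed under 10 CPM in every one of these types were the retinal and muscle L-type pores Cacna1f (296 UMIs in all 5 types) and Cacna1s (117), the γ genes Cacng1 (145) and Cacng6 (45), the muscle and sensory neuron sodium pores Scn4a (7), Scn10a (24) and Scn11a (144), and the β subunit Scn4b (262).

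Among calcium pores in Neurons_1, the L-type gene Cacna1c was at 555 ± 28.9 CPM (SD, n = 4 libraries), the R-type gene Cacna1e at 521 ± 15.5, the P/Q-type gene Cacna1a at 491 ± 66.0, the L-type gene Cacna1d at 342 ± 60.1 and the N-type gene Cacna1b at 268 ± 33.8. The T-type genes were far lower, at 47.2 ± 8.50 CPM for Cacna1g, 36.1 ± 5.28 for Cacna1i and 17.4 ± 5.82 for Cacna1h. Cacna1c, Cacna1e and Cacna1a overlapped across the libraries, so their order by CPM was not larger than the spread. Intronic reads were counted, so long genes can collect more UMIs, and levels of different genes are not directly comparable. They are therefore also given per length of gene body. That UMIs scale with length was not tested, and with a 3′ kit this scale may overstate short genes. As CPM per 100 kb of gene body the P/Q and N pores led, with Cacna1a at 195 and Cacna1b at 168, ahead of Cacna1e at 106, Cacna1c at 91.1, Cacna1d at 75.7 and Cacna1g at 71.7.

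The auxiliary calcium channel genes were dominated by a few members in neurons. Cacna2d1, an α2δ subunit bound by gabapentin, had 892 ± 92.5 CPM in Neurons_1, Cacna2d3 had 466, 445, 423 and 396 CPM, and Cacna2d2 had 107 ± 11.9, against 1.44 ± 0.24 for Cacna2d4. Per 100 kb of gene body Cacna2d1 stood at 203, Cacna2d2 at 82.5 and Cacna2d3 at 52.9 CPM. On that scale Cacna2d3, a gene of 816.9 kb, ranked behind Cacna2d2. Of the β subunits, Cacnb2 had 666 ± 35.7 CPM and Cacnb4 253 ± 8.91, while Cacnb3 had 15.4 ± 2.99 and Cacnb1 13.0 ± 0.91. Per 100 kb the 4 β genes were closer, at 173 CPM for Cacnb2, 112 for Cacnb3, 102 for Cacnb4 and 60.3 for Cacnb1. The γ genes Cacng2 (stargazin, 93.6 ± 2.74 CPM), Cacng7 (74.8 ± 3.38), Cacng8 (62.4 ± 4.86), Cacng4 (45.9 ± 5.02), Cacng3 (41.7 ± 2.48) and Cacng5 (11.4 ± 2.26), all of the group that escorts AMPA receptors, were each present in Neurons_1.

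Sodium channel pores in Neurons_1 were led by Scn2a with 455 ± 34.7 CPM. Scn1a, the pore best known from inhibitory interneurons, had 298 ± 23.8 CPM, Scn9a 240 ± 3.60, Scn3a 204 ± 6.43 and Scn8a, the main pore of mature initial segments and nodes, 201 ± 12.8. The sodium-sensing pore Scn7a had 17.3 ± 1.39 CPM. Per 100 kb of gene body the order was Scn2a (310 CPM), Scn3a (184), Scn1a (175), Scn9a (155) and Scn8a (114). Of the short β subunit genes Scn2b stood above these pores on that scale, at 500 CPM per 100 kb, and Scn3b, at 226, above all of them but Scn2a. The pore genes Scn3a, Scn2a, Scn1a, Scn9a and Scn7a lie on chromosome 2 between bases 65457118 and 66784914 of GRCm38. A gap from 65767447 to 66270778 parts Scn3a and Scn2a from the others.

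**Figure D1:**
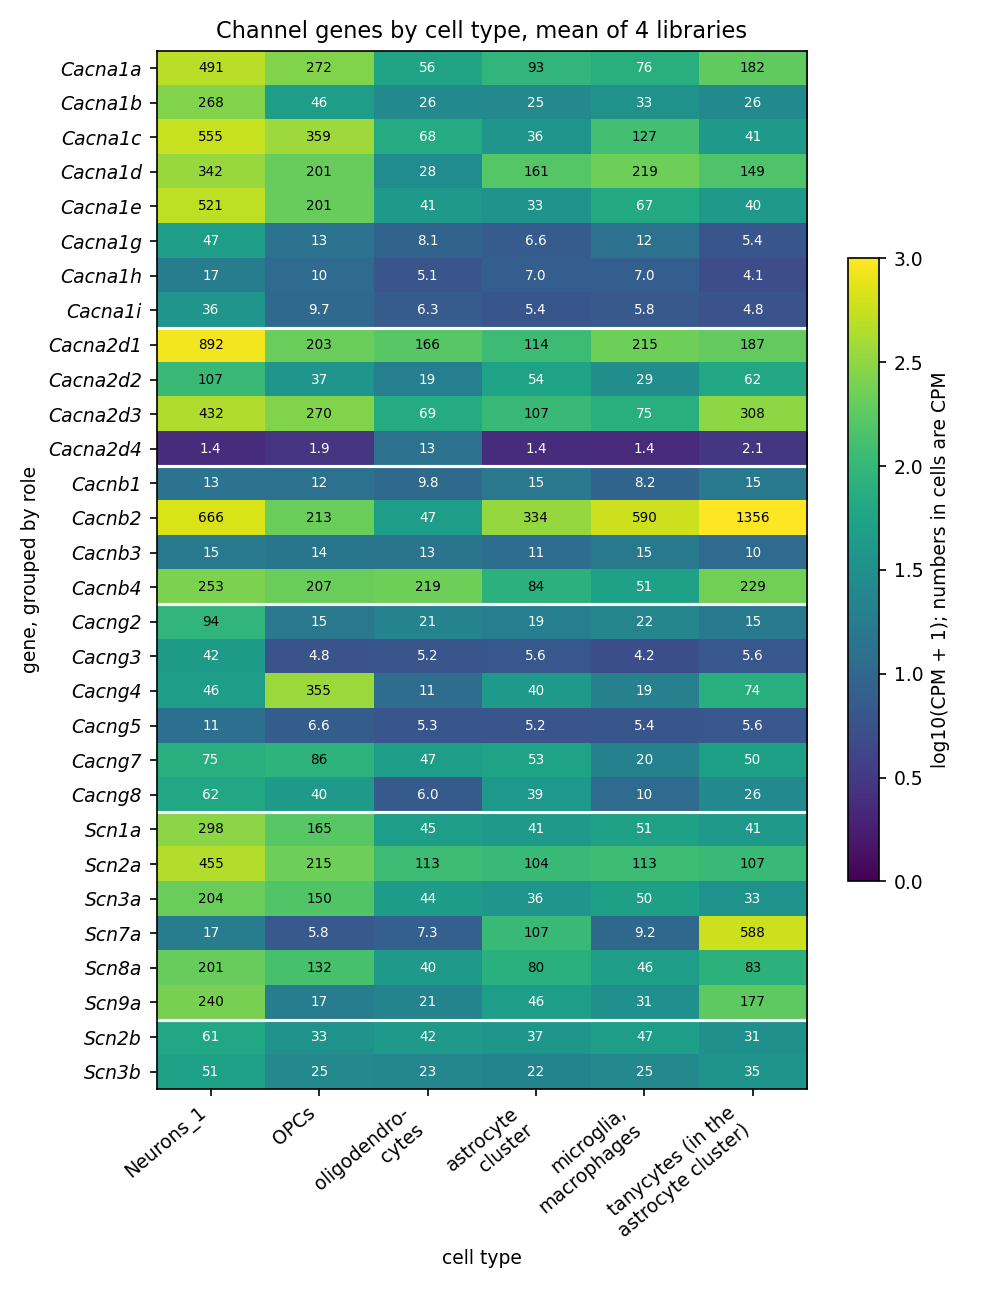
Heat map of 30 channel genes that reached 10 CPM in at least 1 main cell type, with genes in rows grouped by role and cell types in columns; colour is log10(CPM + 1) and the printed value is the mean CPM of the 4 libraries. The Neurons_1 column is brightest for most genes, whereas Cacng4 is brightest in OPCs (355 CPM), Cacna2d4 in oligodendrocytes (12.6 CPM) and Scn7a and Cacnb2 in tanycytes (588 and 1356 CPM), which are a sub-cluster of the astrocyte cluster.

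OPCs held the most channel genes above their own range of the 8 free-RNA genes. That range ended at 62.0% of the Neurons_1 level in OPCs but at 83.9% to 101% in the other glial classes. The counts above it therefore have unlike cut-offs. Of 20 channel genes with at least 100 UMIs in OPCs, 9 stood there, relative to Neurons_1, above all 8 free-RNA genes, among them Cacng4, Cacng7, Cacnb4, Scn3a, Scn8a, Cacna1c, Cacng8 and Cacna2d3. The gene that set OPCs apart was Cacng4, with 368, 465, 243 and 342 CPM in the 4 OPC libraries, or 773% of its Neurons_1 level. At least 1 Cacng4 UMI was found in 55.6%, 71.1%, 40.5% and 54.6% of OPC nuclei, against 1.06% to 2.37% of oligodendrocyte nuclei, with median depths of 2221 to 2984 and 1493 to 1811.5 UMIs. All 4 OPC libraries were far above every oligodendrocyte library. Cacng7 followed with 86.3 ± 7.75 CPM in OPCs against 74.8 ± 3.38 in Neurons_1, a gap in which the library ranges did not overlap but came within a few CPM. The L-type pore Cacna1c, at 359 ± 18.2 CPM in OPCs, and the P/Q pore Cacna1a, at 272 ± 53.9, were below their neuronal levels.

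In the other glia few channel genes stood above the free-RNA range. That range ended at 83.9% to 101% of the Neurons_1 level, so only genes near or above their neuronal level could do so. A place within the range does not show that a level comes from free RNA. Of 24 genes with at least 100 UMIs in oligodendrocytes only Cacna2d4 was above all 8 free-RNA genes, relative to Neurons_1, and 5 were below all of them (Cacna1e, Cacnb2, Cacna1b, Scn9a and Cacna1d). Cacnb4 stood at 219 ± 36.6 CPM in oligodendrocytes, 86.6% of its neuronal level and inside the free-RNA range. The astrocyte cluster had 3 of 30 above that range (Scn7a, Cacnb1 and Cacng4) and 2 below (Cacna1e and Cacna1c). In microglia and macrophages 12 of 14 lay within the range and Cacna1e lay below it. Cacnb2 at 590 ± 93.7 CPM and Cacna1d at 219 ± 39.6 CPM in microglia and macrophages were both within the free-RNA range. The upper end of that range was set by Stmn2 in each glial class. Relative to Neurons_1, Cacnb2 was at 88.5% and Cacna1d at 64.1% in microglia and macrophages, against 7.11% and 8.17% in oligodendrocytes. Cacnb4 was at 20.2% in microglia and macrophages, against 86.6% in oligodendrocytes. Microglia and macrophages also held 3 fibroblast and leptomeningeal markers at a sum of 354, 554, 243 and 645 CPM, against at most 43.3 in the other types. Their sum of 3 mural markers was 164 to 258 CPM, against at most 60.0 elsewhere. The part of free RNA and of other cells under this label in these levels was not tested.

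Tanycytes differed from astrocytes in the level of several channel genes inside the astrocyte cluster. Of the deposited sub-clusters of this cluster, astrocytes and tanycytes were compared, and tanycytes made up 17.0%, 17.3%, 14.9% and 13.2% of its nuclei. The paper also reports vascular and leptomeningeal cells in this cluster, and nuclei outside the compared sub-clusters were left out of the comparison. The labels held against their markers, since the summed level of 4 tanycyte markers was 4723 to 9266 CPM in tanycytes and 1149 to 1957 in astrocytes, and that of 5 astrocyte markers was 2234 to 2795 and 6369 to 10084. Of 30 channel genes with at least 100 UMIs, 7 were more than 2-fold higher in tanycytes than in astrocytes with no overlap between the libraries, and none was below 0.5-fold. The share of all genes with such a step was not taken, so the count does not set channel genes apart. Cacna2d1 was at 187 ± 38.4 CPM in tanycytes and 97.7 ± 11.4 in astrocytes, also without overlap but at a ratio of 1.92. Summed neuronal markers were 575 to 769 CPM in tanycytes and 596 to 815 in astrocytes, so tanycytes held no larger sum of them. The sub-clusters were made from the same counts, and these are descriptions.

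Scn7a, which encodes the sodium-sensing channel Nax, had 342, 992, 221 and 796 CPM in tanycytes and 10.6, 6.25, 5.77 and 3.64 CPM in astrocytes. Tanycytes held 2017 of its UMIs, astrocytes 106. At least 1 UMI was present in 16.9%, 31.9%, 13.9% and 28.4% of tanycyte nuclei and in 0.712% to 1.97% of astrocyte nuclei, although median depths were close (1832 to 2295 against 1662.5 to 2200 UMIs). The tanycyte libraries of repeat 2 stood above those of repeat 1 in both genotypes, and every tanycyte library stood above every astrocyte library by a wide margin. Its neighbour Scn9a, at 177 ± 54.0 CPM in tanycytes and 17.9 ± 3.93 in astrocytes, shared the direction, whereas Scn1a, Scn2a and Scn3a from the same stretch of chromosome 2 had tanycyte to astrocyte ratios of 0.99, 1.04 and 0.92.

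Among the 7 genes, those of calcium channels were auxiliary subunits and the P/Q pore. Cacnb2 reached 1366, 1475, 1202 and 1380 CPM in tanycytes, above its level in Neurons_1 as a whole, and 105, 123, 119 and 110 CPM in astrocytes. Cacna2d3 had 308 ± 57.4 CPM in tanycytes against 64.2 ± 8.38 in astrocytes, and Cacnb4 had 229 ± 68.8 against 53.0 ± 5.14. The pore gene Cacna1a was at 182 ± 34.9 CPM in tanycytes and 73.2 ± 20.6 in astrocytes, while Cacng4 was at 74.0 ± 23.1 and 32.7 ± 2.48. By contrast the L-type pore Cacna1d was at 149 ± 41.3 CPM in tanycytes and 162 ± 21.2 in astrocytes, with overlapping libraries.

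**Figure D2:**
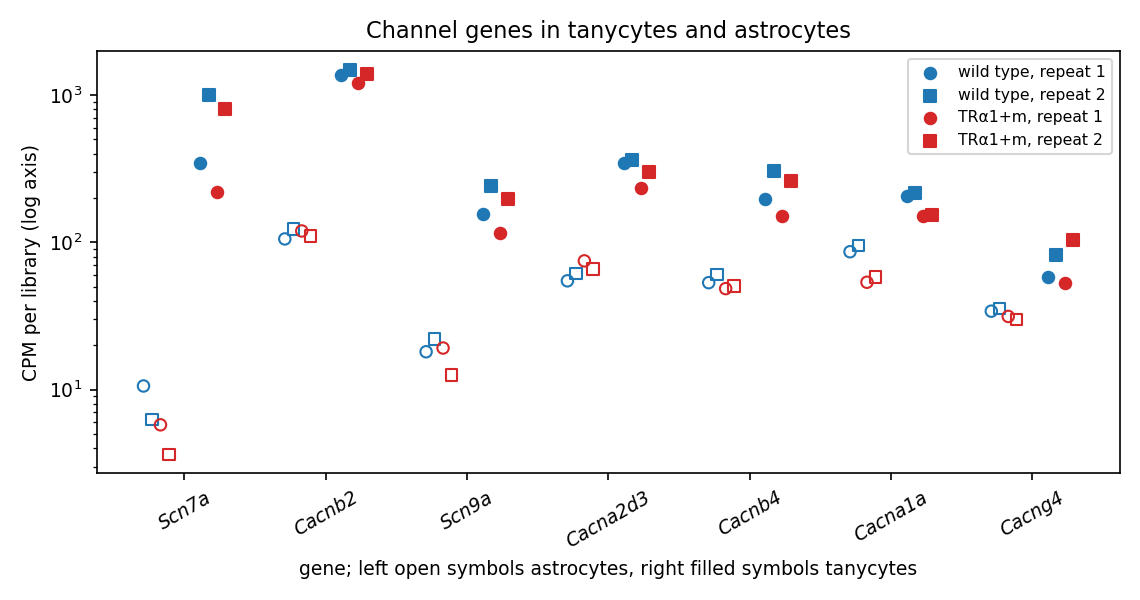
CPM in each library (log axis) of the 7 channel genes with more than a 2-fold ratio of tanycytes over astrocytes and no overlap between libraries; open symbols on the left are astrocytes and filled symbols on the right are tanycytes, circles are repeat 1 and squares repeat 2, blue is wild type and red TRα1+m. The tanycyte symbols lie above the astrocyte symbols for each gene, with a ratio of means from 2.26 for Cacng4 to 89.6 for Scn7a.

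The neuronal sub-clusters differed from each other in auxiliary subunits and in pores. By the rule for naming, a highest sub-cluster at 3 times the level of Neurons_1, only channel genes with few counts qualified, such as Cacna2d4 with 4.52 ± 3.33 CPM (16 UMIs) in AVasopressin Neurons and 1.69 ± 0.475 in Glutamatergic Neurons_3. The contrasts that follow were picked after their values were seen. Cacna2d1 was at 1799 ± 134 CPM in Glutamatergic Neurons_2, 1354 ± 130 in Glutamatergic Neurons_1 and 1342 ± 124 in Glutamatergic Neurons_3, but at 305 ± 12.0 in GABA Neurons and 310 ± 70.2 in NPY/AgRP Neurons. Its relative Cacna2d3 took another order, with 675 ± 86.3 CPM in AVasopressin Neurons and 588 ± 29.1 in GABA Neurons but 191 ± 19.6 in Glutamatergic Neurons_1 and 79.9 ± 25.4 in CART Neurons_1. GABA Neurons were therefore low for Cacna2d1 and high for Cacna2d3, and Glutamatergic Neurons_1 the reverse, by margins beyond the SD over libraries.

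The β subunit Cacnb2 ranged from 151 ± 51.5 CPM in Oxytocin+, AVP Neurons to 1541 ± 118 in Somatostatin+ Neurons, a 10.2-fold span. The γ gene Cacng3 was also highest in Somatostatin+ Neurons, at 117 ± 18.7 CPM, and lowest in NPY/AgRP Neurons, at 9.18 ± 3.91. Among sodium pores, Scn1a ran from 88.0 ± 19.2 CPM in AVasopressin Neurons to 464 ± 67.3 in CART Neurons_1, and Scn9a from 142 ± 19.4 in Somatostatin+ Neurons to 461 ± 75.3 in NPY/AgRP Neurons. The R-type pore Cacna1e was highest in NPY/AgRP Neurons, at 772 ± 19.9 CPM, where the L-type pore Cacna1d, at 565 ± 133, was also among the highest. The sub-cluster labelled Orexin+ held the highest Scn8a, at 319 ± 47.7 CPM, and the lowest Cacna1e, at 214 ± 33.4.

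Within a cell type the calcium pores can be compared as shares of the UMIs of all 10 pore genes. In Neurons_1 the L type took 39.5%, R 22.9%, P/Q 21.5%, N 11.7% and T 4.39% (means of 4 libraries). OPCs gave 50.6% L type and 4.09% N type, and the astrocyte cluster gave 54.0% L type and 8.96% R type. Of 12 neuronal sub-clusters and 5 cell types, the mean share of the N-type pore was highest in the sub-cluster labelled Orexin+, with 19.2%, 23.6%, 21.3% and 26.1%, and its P/Q share was 31.2% ± 1.83. Shares may depend on gene length, so they serve to compare cell types and not classes.

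The comparison of genotypes asks which channel genes differ when TRα1 signalling is impaired. In oligodendrocytes Cacna2d4, an α2δ subunit best known from photoreceptor synapses, had 59 and 64 UMIs in the wild type libraries and 6 and 5 in the TRα1+m libraries. That is 22.8 and 23.6 CPM in wild type (23.2 ± 0.58, SD, n = 2) and 2.22 and 1.98 in TRα1+m (2.10 ± 0.17), or 11-fold lower in the mutant. Both wild type libraries stood far above both TRα1+m libraries, and repeats of 1 genotype nearly coincided. The gene lies on chromosome 6, bases 119236526 to 119352407 of GRCm38 on the plus strand, and Lrtm2 overlaps it on the opposite strand.

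Cacna2d4 was called lower in oligodendrocytes, 1 of 31 channel genes tested there without the replicate block (edgeR quasi-likelihood test, log2 fold change -3.37, SE 0.35, adjusted p = 0.0487), where 0.103% of all 12630 genes tested were called. Here and below, the SE of an edgeR fold change is its absolute value divided by the square root of the F statistic. It is no separate estimate of the spread, and the counting error on few UMIs can be larger. With the replicate block, which pairs the libraries of each repeat, the adjusted p was 3.92e-11. The call was lost without wild type repeat 1 (adjusted p = 0.367) and without wild type repeat 2 (adjusted p = 0.522), while the log2 fold change stayed at -3.37 and -3.36. A test of single values over the libraries cannot pass, since the smallest two-sided exact permutation p of 2 against 2 is 0.333. Groups without overlap have that p, so lack of overlap between genotypes is given only as a description. It held for 7 to 12 of the 40 channel genes in each of the 5 cell types, and its share over all genes was not taken. With interchangeable libraries a share of about 0.333 of genes would lack overlap, so it sets no gene apart by itself. The pools were the replicates throughout, so p-values do not measure the spread between mice. With 4 libraries few residual degrees of freedom were left, and fewer with the replicate block. The spread between pools was therefore moderated over all genes. Small p-values with the block rest on that shared spread and not on the pools of 1 gene alone.

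The drop was seen in the number of nuclei with the transcript. Of wild type oligodendrocyte nuclei 3.17% (52 of 1641; exact binomial 95% interval 2.38% to 4.13%) and 4.15% (58 of 1396; 3.17% to 5.34%) held at least 1 Cacna2d4 UMI, against 0.356% (6 of 1685; 0.131% to 0.773%) and 0.354% (5 of 1413; 0.115% to 0.824%) of TRα1+m nuclei. These intervals cover counting error only. Nuclei with more than 1 UMI were few, and the highest count in a nucleus was 3. In Neurons_1, with 3797 to 5227 median UMIs against 1493 to 1811.5 in oligodendrocytes, the share was 0.527% to 0.937%. After each nucleus was thinned to 900 UMIs the shares in oligodendrocytes were 1.8%, 1.9%, 0.195% and 0.251%, and in Neurons_1 0.110% to 0.154%, so the TRα1+m oligodendrocytes were near the neuronal share and the wild type ones were not.

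In the other cell types Cacna2d4 was low in all libraries. Neurons_1 had 1.21 and 1.74 CPM in wild type and 1.28 and 1.52 in TRα1+m (log2 fold change -0.15, SE 0.32, edgeR adjusted p = 1.00). The astrocyte cluster had 7, 10, 3 and 7 UMIs, OPCs 2, 4, 1 and 3, and microglia and macrophages 2, 2, 0 and 0. There the 0 of 507 and 0 of 392 nuclei of TRα1+m allow shares of nuclei with a UMI, not of nuclei expressing the gene, of up to 0.592% and 0.765%. These bounds are 3 counts over the number of nuclei, and the exact binomial interval used for oligodendrocytes would be wider. The genotype effect differed between oligodendrocytes and Neurons_1 by -3.28 on the log2 scale (SE 0.52, edgeR interaction, adjusted p = 0.0488), 1 of 37 channel genes called where 0.182% of all genes were. The difference lost its call under bias-adjusted quasi-likelihood (adjusted p = 0.119) and without wild type repeat 1 (0.272), and with the replicate block it had adjusted p = 1.26e-05 at a background of 1.88%. Against OPCs the difference was -2.61 (SE 1.08, adjusted p = 0.743), none of 31 channel genes being called by edgeR (4 at an unadjusted p under 0.05, 0 by DESeq2) with 0.403% of all genes called.

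**Figure D3:**
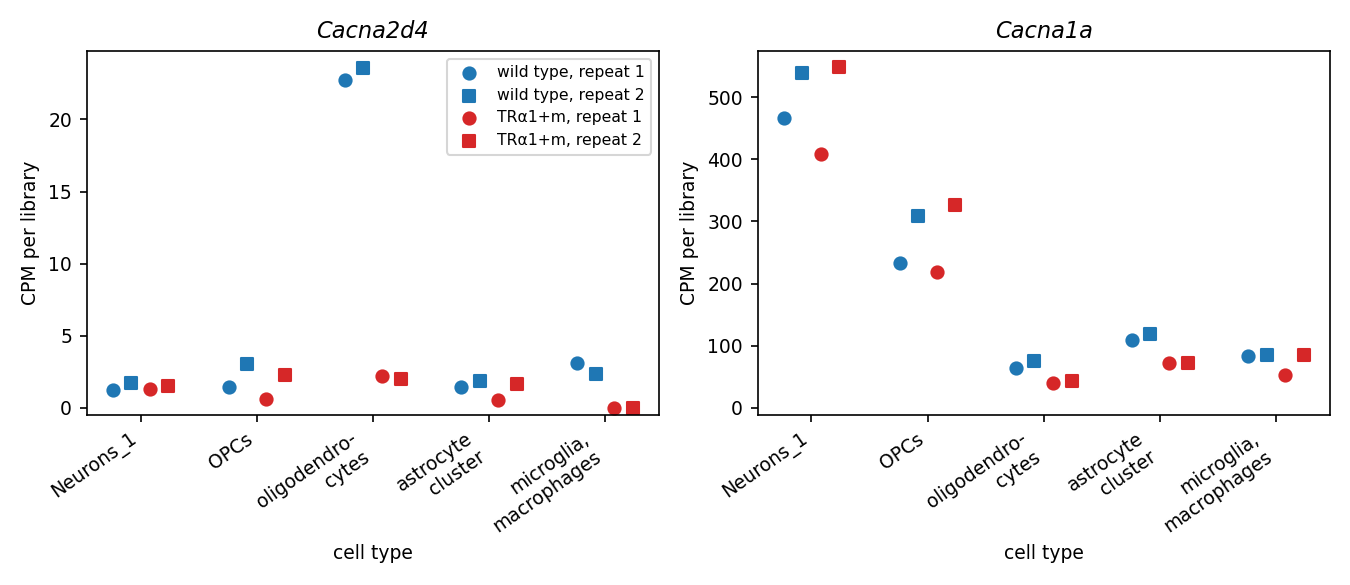
CPM per library of the α2δ gene Cacna2d4 (left) and the P/Q-type pore gene Cacna1a (right) in 5 cell types; circles are repeat 1, squares repeat 2, blue wild type and red TRα1+m, and both vertical axes are linear. The wild type oligodendrocyte libraries stand at 22.8 and 23.6 CPM of Cacna2d4 and all other libraries below 4, and Cacna1a is lower in both TRα1+m libraries of oligodendrocytes and of the astrocyte cluster but not in Neurons_1 or OPCs, where the repeats separate.

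The P/Q pore Cacna1a had the second smallest p in oligodendrocytes. It stood at 63.7 and 75.6 CPM in wild type and 39.9 and 44.0 in TRα1+m oligodendrocytes, groups that did not overlap (log2 fold change -0.66, SE 0.19, edgeR adjusted p = 0.545). Scn1a had 55.2 and 56.8 against 43.2 and 26.1 CPM (-0.62, SE 0.27), also without overlap, and its log2 fold change was -0.33 without TRα1+m repeat 2 and -1.02 without TRα1+m repeat 1. Summed markers of neurons in oligodendrocytes were 961 and 974 CPM in wild type and 931 and 671 in TRα1+m. In repeat 1 they were thus at 961 and 931 CPM, where Cacna1a was at 63.7 and 39.9 and Scn1a at 55.2 and 43.2. In repeat 2 they were at 974 and 671, where Cacna1a was at 75.6 and 44.0 and Scn1a at 56.8 and 26.1. The part of free neuronal RNA in the result was not tested. Under the replicate block 3 channel genes were called in oligodendrocytes, Cacna2d4, Cacna1a (adjusted p = 0.0106) and Scn1a (0.0295), at a background of 4.35%.

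Cacna1a was also lower in the astrocyte cluster of TRα1+m, at 110 and 118 CPM in wild type and 71.7 and 71.6 in the mutant, again without overlap. The log2 fold change was -0.66 (SE 0.13, edgeR adjusted p = 1.00), and no channel gene of 31 tested passed the correction (1 at an unadjusted p under 0.05, 0 by DESeq2; 0% of all genes called). The difference was present in both of the compared sub-clusters, with 86.2, 95.1, 53.5 and 58.0 CPM in astrocytes and 207, 217, 151 and 152 CPM in tanycytes. Neuronal markers summed to 778 and 801 CPM in wild type and 794 and 589 in TRα1+m, and their part in the result was not tested. The block called Cacna1a (adjusted p = 3.59e-04) and Scn7a (log2 fold change -0.73, adjusted p = 5.17e-05), at a background of 1.28%. Without the block the Scn7a difference was 0.07 when wild type repeat 2 was left out. In tanycytes alone with the block it was -0.45 (adjusted p = 0.177), with none of 25 channel genes called there by edgeR (7 at an unadjusted p under 0.05) and 0.481% of all genes called, and in astrocytes without tanycytes it was -0.82 (edgeR without the block, adjusted p = 1.00). The part of the tanycyte share, which was lower in both TRα1+m libraries, was not tested.

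Further members of small p in the astrocyte cluster were Scn9a (44.5 and 63.5 CPM in wild type, 37.1 and 38.3 in TRα1+m), Cacnb3 (11.7 and 14.4 against 9.93 and 8.22) and Cacnb2 (349 and 380 against 321 and 286). None of these passed the test. Cacnb2 in astrocytes without the tanycytes had a log2 fold change of 0.01, where the whole cluster gave -0.25, and the part of the tanycyte share was not tested.

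In OPCs the leading difference was again in Cacng4, which had 368 and 465 CPM in wild type and 243 and 342 in TRα1+m. Each TRα1+m library was below both wild type libraries (log2 fold change -0.55, SE 0.20, edgeR adjusted p = 1.00), and none of 27 channel genes tested passed (1 at an unadjusted p under 0.05, 0 by DESeq2; 0% of all genes called). Cacng4 was called with the replicate block (-0.56, adjusted p = 0.0028) at a background of 0.569%, and without TRα1+m repeat 1 its unblocked log2 fold change was -0.35. The T-type pore Cacna1i went the other way on few counts, with 10 and 7 UMIs in wild type and 19 and 19 in TRα1+m (log2 fold change 0.99, SE 0.46), while Cacna2d1 had 213 and 235 against 169 and 196 CPM (-0.33, SE 0.17), and neither passed the test. The genotype effect of Cacna1a differed between oligodendrocytes and OPCs with the replicate block (-0.60, adjusted p = 0.0282; background 2%), 1 of 31 channel genes, and without it the adjusted p was 0.428.

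In microglia and macrophages none of 22 channel genes was called by edgeR (0 at an unadjusted p under 0.05, 0 by DESeq2; 0% of all genes called, and none of 22 with the replicate block, 2 at an unadjusted p under 0.05, at a background of 0.335%). The smallest p belonged to Cacna2d3 (95.5 and 83.9 CPM in wild type, 56.1 and 64.8 in TRα1+m), Cacnb2 (669 and 674 against 509 and 509), Cacna2d1 (200 and 288 against 213 and 159) and Scn3b (21.9 and 19.8 against 32.6 and 24.3). Cacna2d3 and Cacnb2, lower in TRα1+m, and Scn3b, higher, were among the 9 of 40 channel genes without overlap between genotypes in this cell type. The share of all genes without overlap was not taken. None of the 4 passed the test.

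In Neurons_1, the deepest class, none of 38 channel genes tested was called between genotypes by edgeR (0 at an unadjusted p under 0.05, 0 by DESeq2), and 0% of the 19926 genes were, with 193 at an unadjusted p under 0.05. The replicate block again gave 0 of 38 (9 at an unadjusted p under 0.05), at a background of 0.01%. The smallest p was that of the L-type pore Cacna1d, at 429 and 332 CPM in wild type and 295 and 311 in TRα1+m (log2 fold change -0.40, SE 0.16, edgeR adjusted p = 1.00). Wild type repeat 1 was the highest library, and without it the log2 fold change was -0.18. Cacna2d3 had 466 and 445 against 423 and 396 CPM (-0.22, SE 0.10), Cacnb2 706 and 672 against 668 and 620 (-0.16, SE 0.10) and Scn4b 0.85 and 2.34 against 0.56 and 1.18 CPM (-0.96, SE 0.62).

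Negative fold changes outnumbered positive ones among the channel genes in each cell type. In oligodendrocytes 22 of 31 (71.0%) were negative, in Neurons_1 28 of 38 (73.7%), in the astrocyte cluster 24 of 31 (77.4%), in OPCs 20 of 27 (74.1%) and in microglia and macrophages 18 of 22 (81.8%), against 47.8% to 50.2% of all genes tested. The medians were small, at -0.14, -0.07, -0.16, -0.12 and -0.24 on the log2 scale. Single libraries turned this in 2 cell types, since without TRα1+m repeat 2 only 14 of 32 (43.8%, median 0.03) were negative in oligodendrocytes, and in Neurons_1 17 of 38 (44.7%, median 0.02) were without wild type repeat 2 and 19 of 38 without TRα1+m repeat 1. The 5 cell types came from the same 4 pools and share free RNA, so they are not independent counts, and no test was made of the list.

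Cacna1d and Cacna2d3 were lower in TRα1+m in 12 of 12 neuronal sub-clusters tested, which come from the same libraries. Both genes had the smallest p in Neurons_1, which holds these nuclei, so the shared sign is no separate support. The share of all genes lower in 12 of 12 was not taken. Median log2 fold changes were -0.37 (range -0.64 to -0.12) for Cacna1d and -0.29 (-1.10 to -0.17) for Cacna2d3. The 2 genes are close on chromosome 14, with 318 kb between Cacna2d3 (28904943 to 29721864) and Cacna1d (30039939 to 30491455), both on the minus strand. Whether their differences are related was not tested. None of the 349 pairs of a channel gene and a sub-cluster passed the edgeR test (13 at an unadjusted p under 0.05, 0 by DESeq2), and 0.00367% of all pairs did. Under the block of repeats 7 pairs were called, at a background of 0.42%, and 6 of them were of these genes.

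The Cacna2d3 differences furthest from 0 were in the sub-clusters with its lowest levels, CART Neurons_1 and Oxytocin+, AVP Neurons. In CART Neurons_1 Cacna2d3 had 94.3 and 107 CPM in wild type and 65.9 and 52.1 in TRα1+m (-0.84 with the replicate block, adjusted p = 0.00997), and Cacna1d had 472 and 386 against 255 and 318 (-0.62, adjusted p = 0.0303). Cacnb2 was called there as well, with 648 and 600 against 513 and 438 CPM (-0.45, adjusted p = 0.00997). The genotypes did not overlap for any of the 3 genes in CART Neurons_1. In Glutamatergic Neurons_2 the blocked values were -0.34 for Cacna2d3 (565 and 516 against 450 and 434 CPM, adjusted p = 0.00252) and -0.41 for Cacna1d (456 and 345 against 304 and 314, adjusted p = 0.0107). Cacna1d in POMC/CART Neurons (393 and 316 against 241 and 253 CPM, -0.53, adjusted p = 0.0155) did not overlap between genotypes either. Cacna2d3 in Oxytocin+, AVP Neurons had 211 and 100 against 100 and 39.1 CPM (-1.19, adjusted p = 0.049), where 1 wild type and 1 mutant library were level. Without the block, Cacna1d in Glutamatergic Neurons_2 was at -0.20 without wild type repeat 1 and -0.64 without wild type repeat 2. Cacna2d3 in Oxytocin+, AVP Neurons was at -0.50 without wild type repeat 1, -0.68 without TRα1+m repeat 2 and -2.06 without TRα1+m repeat 1.

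**Figure D4:**
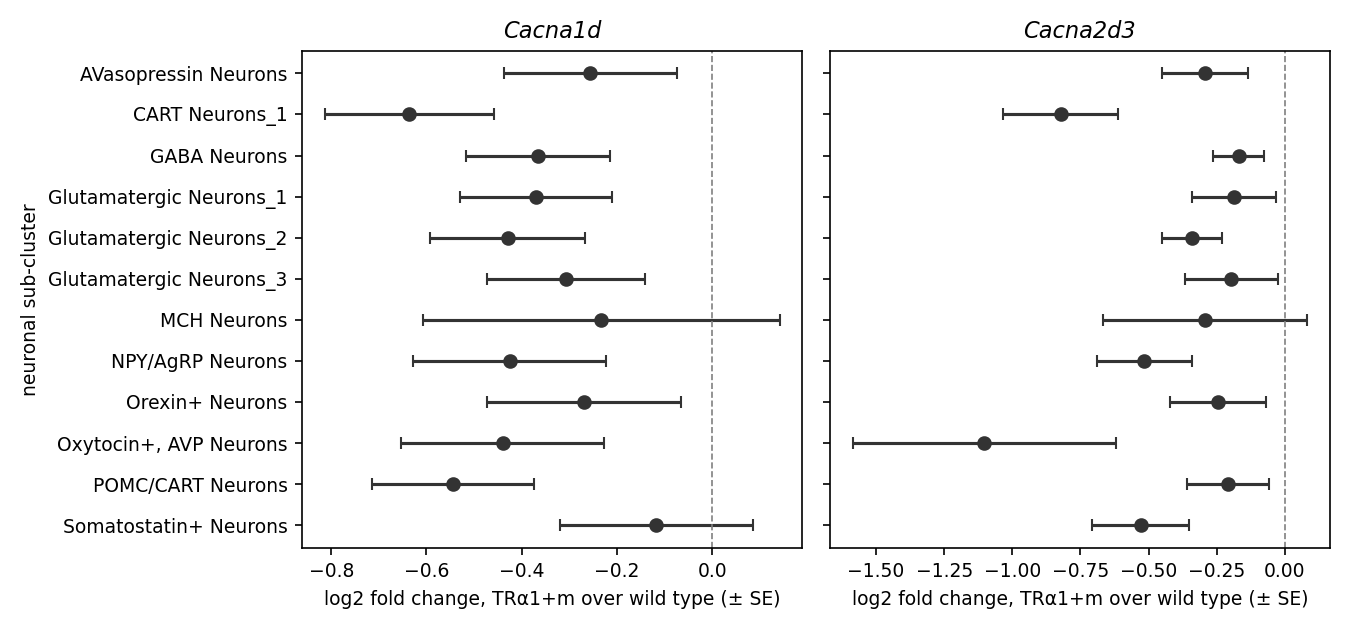
Log2 fold change of TRα1+m over wild type with its SE (edgeR fit without the replicate block) for the L-type pore gene Cacna1d (left) and the α2δ gene Cacna2d3 (right) in 12 neuronal sub-clusters; the dashed line marks no difference and the horizontal scales differ. All points lie left of 0, from -0.64 to -0.12 for Cacna1d and from -1.10 to -0.17 for Cacna2d3, and none passed the test in this fit. The SE was derived from the F statistic.

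A list of 30 partner genes, among them the sodium leak channel with its subunits, FGF homologous factors, initial segment scaffolds, active zone proteins, ryanodine receptors and calmodulins, held no gene called between genotypes by edgeR in any of the 5 types. The tested members numbered 22 in oligodendrocytes, 30 in Neurons_1, 26 in the astrocyte cluster, 22 in OPCs and 21 in microglia and macrophages. At an unadjusted p under 0.05 they were 1, 2, 3, 0 and 3, and over all genes 672 of 12630, 193 of 19926, 255 of 14797, 185 of 11248 and 226 of 10451. The replicate block called 2, 0, 3, 0 and 1 of the partners, where it called 4.35%, 0.01%, 1.28%, 0.569% and 0.335% of all genes. In that fit the sodium leak channel gene Nalcn was lower in oligodendrocytes (-0.51, adjusted p = 0.0295) and the astrocyte cluster (-0.50, adjusted p = 0.0144). Its subunit gene Fam155a was lower in the astrocyte cluster (-0.60, adjusted p = 0.00171) and in microglia and macrophages (-0.81, adjusted p = 0.0262). The presynaptic scaffold Rimbp2 was lower in the astrocyte cluster (-0.83, adjusted p = 4.61e-04), and Nfasc, a node and initial segment adhesion molecule, was higher in oligodendrocytes (0.66, adjusted p = 0.00314).

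Channel genes were also compared between the experimental repeats, with both genotypes in 1 fit. In Neurons_1 13 of 38 were called between repeats, all higher in repeat 2, where 25.2% of all genes were called (edgeR, adjusted p under 0.05), and DESeq2 called 6. The sodium β subunit gene Scn2b had 36.5 and 87.2 CPM in wild type and 37.1 and 85.1 in TRα1+m, for repeat 1 and repeat 2 of each (log2 fold change 1.19, SE 0.08, edgeR adjusted p = 3.76e-05). It separated the repeats with no overlap, and the genotypes were close within each repeat.

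The other genes higher in repeat 2, on the log2 scale, included Scn4b (1.26), the T-type pore Cacna1h (0.82), Cacng5 (0.45), Scn3b (0.42), Cacna1g (0.40), Cacnb3 (0.39), Cacna1i (0.32), Cacna1a (0.28), Cacna1b (0.26) and Cacna2d1 (0.21). Scn2b (12.3 kb) and Scn4b (15.8 kb), both with more than a 2-fold step, are among the shortest channel genes, but Scn4b had only 262 UMIs in all 5 cell types. Cacnb3 (13.7 kb) and Scn3b (22.4 kb), also short, moved by 0.39 and 0.42, and the longer Cacna1h (59.5 kb) by 0.82. Depth per nucleus was higher in repeat 2. The part of gene length and depth in this result was not tested.

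**Figure D5:**
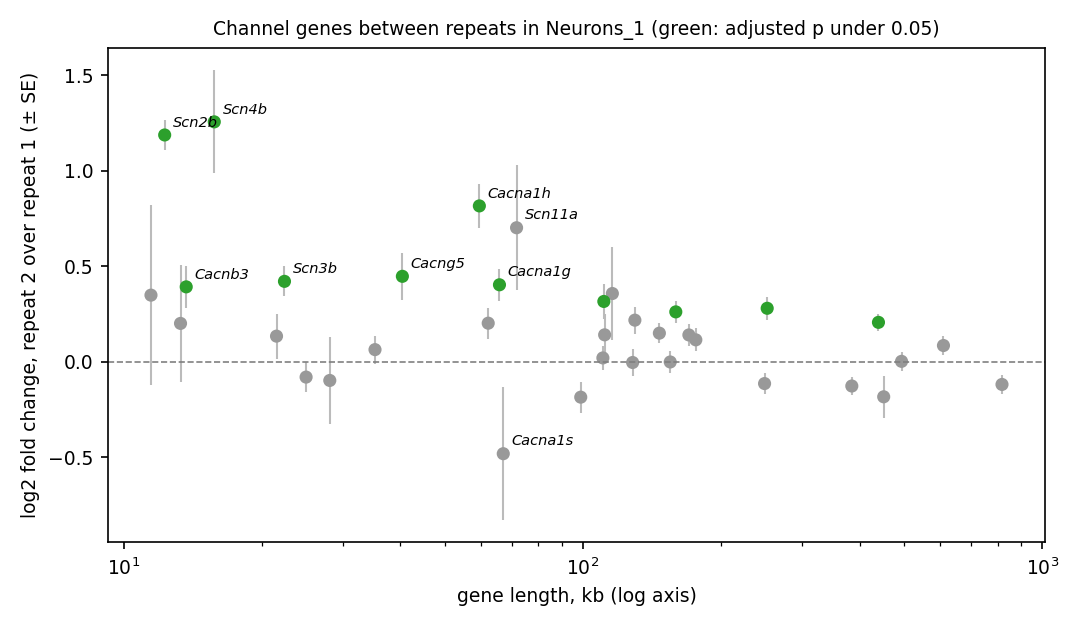
Log2 fold change of repeat 2 over repeat 1 in Neurons_1 with its SE (edgeR, both genotypes in 1 fit) against gene length in kb on a log axis, for 36 channel genes; green points have an adjusted p under 0.05 and grey points do not. The 11 green points all lie above 0, and the highest are Scn4b and Scn2b at the short end of the length axis, where Cacnb3 lies at 0.39. The SE was derived from the F statistic.

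Outside neurons the repeats called 6 of 31 channel genes in the astrocyte cluster (20.6% of all genes; 1 by DESeq2), with Scn7a (1.31, adjusted p = 4.23e-14) and Cacna2d2 (0.42) higher and Cacng2 (-0.89), Scn3b (-0.55), Scn3a (-0.54) and Scn2a (-0.50) lower in repeat 2. In tanycytes alone Scn7a was higher in repeat 2 by 1.63 on the log2 scale (SE 0.15, adjusted p = 1.95e-17), among 9 of 25 channel genes called with 14.1% of all genes called. Oligodendrocytes gave 2 of 31, Scn3a (-0.61) and Cacnb2 (-0.55), with 12.4% of all genes called, and OPCs gave 2 of 27, Cacng2 (-1.39) and Cacna1a (0.42), with 11.4% of all genes called, neither of these counts holding a call by DESeq2. Microglia and macrophages gave 0 of 22 by edgeR (3 at an unadjusted p under 0.05, 0 by DESeq2), with 6.27% of all genes called.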

How the data were processed

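Hypothalamic nuclei of 4 libraries (10x v3.1, 3 mice pooled in each) were used as deposited. According to the study's methods, the authors counted reads against mm10 with Cell Ranger 5.0.1, introns included, removed nuclei of low quality and predicted doublets, and annotated clusters with Seurat; the deposited values are whole UMI counts per gene and nucleus, unnormalized, with the annotation in a table of its own. Here, counts of 56386 annotated nuclei were summed per library and cell type. Genotypes were compared with edgeR 4.0.16 (quasi-likelihood test, TMM, filterByExpr, all genes fitted together, Benjamini-Hochberg adjustment, threshold 0.05) in R 4.3.3, run on summed counts after a test on simulated data. The study tested nuclei by rank sum, for genes in at least 10% of nuclei; here the pool is the replicate. Libraries of one repeat were processed together (study methods), and deviations of same-numbered libraries correlated over genes (Pearson's r 0.541 in oligodendrocytes, 0.667 in Neurons_1, 0.668 in the astrocyte cluster, 0.495 in OPCs, 0.393 in microglia and macrophages), so a fit with the replicate block is given where it changed a call. Genotype tests in the 5 cell types, the neuronal sub-clusters and the interactions were recomputed with DESeq2 1.42.0, without the filter on low counts, and with other size factors and bias adjustment. They were also rerun with equal numbers of nuclei and without each library in turn. Repeat comparisons had only the first 4 of these alternatives. Highest cell types and pore class shares were recomputed from pooled UMIs and without each library, and highest cell types also with TMM sizes and thinned nuclei. Named genes were the called ones and the 4 of smallest p in each cell type; sub-cluster contrasts were picked after seeing values. The channel genes and gene lists were chosen with earlier results of these data known. Gene positions are from GENCODE vM21, GRCm38. The 10x 3′ kit keeps the strand. Depth per library was 47260127 to 59112785 UMIs. Neurons_2 and the unclassified non-neuronal nuclei were left out, as by the authors. Single values of 2 channel genes are not reported here, and counts over the channel genes include them.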

Additional observations from a re-analysis of the deposited data

Results flagged for a closer look

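The genotype effect of Cacna2d4 differed between oligodendrocytes and Neurons_1, by -3.28 on the log2 scale (edgeR interaction of genotype and cell type, SE 0.52, adjusted p = 0.0488). Oligodendrocytes went from 22.8 and 23.6 CPM in wild type to 2.22 and 1.98 in TRα1+m, in 2 of 2 repeats, and Neurons_1 from 1.21 and 1.74 to 1.28 and 1.52. Groups of 2 libraries are too small for a search for outlying libraries, so none was made.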

How the results depend on the processing

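The recomputed counts of channel genes and class shares of calcium pores numbered 271, of which 251 stayed. Counts stayed if within 1.5 times the count given, and shares if within 1 SD over the libraries. A mean share cannot move by 1 SD when 1 of 4 libraries is left out, so those shares could only stay. Of 422 recomputed single-gene effects 379 kept both direction and side of the threshold, 15 passed it anew, 25 lost it and 3 changed sign. With the replicate block the called channel genes were 3 in oligodendrocytes, 2 in the astrocyte cluster, 1 in OPCs, 7 in the sub-clusters and 1 in the interaction with OPCs, and the block changed no other count of calls. Leaving out each library gave 0 to 1 in oligodendrocytes, 0 to 1 in the sub-clusters (Cacna2d3 in Oxytocin+, AVP Neurons without TRα1+m repeat 1) and 0 to 1 in the interaction with Neurons_1, where bias adjustment gave 0. The study's own limits with a rank sum over nuclei gave 0 in oligodendrocytes, where Cacna2d4 could not pass, since these limits need 10% of nuclei with a UMI and it had at most 4.15%. Without a filter on low counts 1 pair of the sub-clusters was called, Cacna1d in CART Neurons_1. For repeats, DESeq2 gave 6 in Neurons_1, 1 in the astrocyte cluster and 0 in both oligodendrocytes and OPCs, and oligodendrocytes gave 1 with RLE factors and 1 without the filter. Genes highest in microglia and macrophages were 0 under TMM scaling and 1 to 2 when a library was left out. Signs changed for Cacnb2 (0.00901) and the repeat effect of Scn7a (-0.768) in astrocytes without tanycytes, chosen after seeing the data, and for Scn7a in the astrocyte cluster (-1.53 to 0.067 when a library was left out, the highest without wild type repeat 2). The cause of these changes was not tested. Repeat comparisons could not be fitted with a library left out. The Cacna2d4 level of TRα1+m oligodendrocytes rests on 11 UMIs, and with 2 pools a genotype the spread between mice is not measured.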

Other observations

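The gene next to Cacna2d4 was also lower in TRα1+m oligodendrocytes, with a call in the fit with the replicate block and not without it. Adipor2, an adiponectin receptor gene picked after its values were seen, lies on chromosome 6, bases 119353150 to 119417704 of GRCm38 on the minus strand, and its end is 743 bases from the end of Cacna2d4. In oligodendrocytes it had 437 and 517 CPM in wild type and 145 and 208 in TRα1+m, without overlap (log2 fold change -1.36, SE 0.23, edgeR adjusted p = 0.185, and 9.58e-11 with the replicate block). In Neurons_1 it had 35.7 and 40.4 against 36.1 and 41.7 CPM, and the difference of the effects was -1.38 (SE 0.18, adjusted p = 0.0170). Of the other genes around Cacna2d4, Dcp1b, Wnt5b and the L-type pore Cacna1c did not show such a step in oligodendrocytes. Dcp1b had 47.8 and 46.4 against 44.3 and 45.9 CPM, Wnt5b 12.3 and 23.2 against 14.4 and 26.1, and Cacna1c 56.7 and 75.2 against 62.5 and 79.2. Lrtm2, which lies within Cacna2d4 on the other strand, had 10.4 and 7.74 against 6.65 and 5.15 CPM. These are 27 and 21 against 18 and 13 UMIs, without overlap (log2 fold change -0.55, SE 0.39, not called by edgeR). Such counts are too low to tell whether Lrtm2 has a step. Whether the differences of Cacna2d4 and Adipor2 are related was not tested.

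In tanycytes 9 channel genes were called between the repeats, with 14.1% of all genes called. None was called between the genotypes with the replicate block, with 0.481% of all genes called. Beside Scn7a, Cacna2d2 (log2 1.19), Cacng4 (0.66), Cacnb4 (0.66) and Scn9a (0.64) were higher in repeat 2, and Scn3a (-1.28), Cacna1c (-0.80), Cacna1d (-0.73) and Scn2a (-0.57) were lower (edgeR, adjusted p from 1.95e-17 to 0.0475 over the 9 genes). The genotype difference of Cacna1c was as large, at 0.84 (SE 0.45) without the block. With the block it was 0.78 (SE 0.28, edgeR adjusted p = 0.297). In these tanycytes the P/Q pore Cacna1a stayed level between repeats and stood at 207 and 217 CPM in wild type and 151 and 152 in TRα1+m (log2 fold change -0.47, SE 0.20, adjusted p = 1.00).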
